A study of Mus musculus with 10 samples.

Results

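The genes described are those of the translation initiation factors, taken as every mouse symbol that starts with *Eif* and a digit from 1 to 6, without the eIF1A genes and the *Eif2ak* kinases, which are given further on as neighbouring lists. The rule used names alone and no measured value. It found 40 genes on 113 probe sets (groups of short probes that read 1 transcript region), out of 18193 genes named by 1 symbol and 45037 probe sets in all. Of these genes 10 had 1 probe set and 30 had several, up to 6, and each gene was read from the probe set with the highest mean over the arrays.

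The arrays came from *Max*-null ESCs, male mouse embryonic stem cells of strain 129SV in which both endogenous *Max* alleles were disrupted and a *Max* cDNA at the ROSA26 locus was driven by a tetracycline-off system, so that doxycycline (Dox, 1 μg per ml) shut the cDNA off. All 10 arrays shared this genotype, the untreated ones included, where the cDNA stayed on. In LIF+serum, the conventional medium, a first set held an untreated array and 1 array each after 1, 2, 3 and 4 d of Dox, and a second set held another untreated array with 1 array each after 6 and 8 d. In 2i+LIF, with inhibitors of MEK and of GSK3β, the last set held cells kept for 6 d without and with Dox. No Dox time had a second array. The labels do not say whether each array had a culture of its own, and a p-value here therefore reflects array-to-array spread that may be technical.

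Translation initiation loads the small ribosomal subunit with the initiator tRNA, brings it to the capped 5′ end of an mRNA and joins it to the large subunit at the start codon. eIF2 carries the initiator tRNA with GTP, eIF2B recharges eIF2, eIF3 is the large scaffold on the small subunit, and eIF4F (the cap-binding protein eIF4E, the helicase eIF4A and the scaffold eIF4G) prepares the mRNA. The 4E-binding proteins hold eIF4E away from eIF4G until mTORC1 phosphorylates them. MAX is the partner through which MYC proteins bind the E-box CACGTG, and genes of ribosomes and translation are textbook targets of MYC.

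The probe set for *Max* lay near the background of the arrays, between 5.07 and 6.20 (deposited log2 values) over the 8 LIF+serum arrays, and its slope was 0.02 ± 0.04 log2 per day of Dox (SE, limma, adjusted p = 0.785). The sources used here do not place its probes relative to the deleted part or to the cDNA, and it therefore does not check the labels. ES cell markers were bright on all arrays, with *Pou5f1* between 11.92 and 12.79 in LIF+serum, and 2 of 9 rose with Dox (*Nanog*, *Klf4*) while 1 fell (*Utf1*). Of the markers for other cell types, 5 of 6 germ cell genes rose, and their summed linear value went from 675 and 1940 on the untreated LIF+serum arrays to between 1450 and 24200 with Dox, and from 2660 to 9300 in 2i+LIF. The summed value of 9 fibroblast markers was 292 and 320 without Dox and 245 to 746 with it (2 rose, *Pdgfra* and *Pdgfrb*), that of 8 primitive endoderm markers 252 and 334 against 253 to 407 (none passed, the smallest adjusted p being 0.124 by limma, and 1 at an unadjusted p under 0.05), and that of 6 trophoblast markers 414 and 554 against 330 to 1780 (1 rose, *Krt7*). The 3′ minus 5′ signal of *Actb*, a sign of RNA quality, was 0.41 to 0.56 log2 on the first set, 0.88 on the second untreated array, 1.46 and 1.22 after 6 and 8 d, and 0.78 and 0.76 in 2i+LIF. Without the second untreated array none of these marker calls held, that of *Nanog* ended without any 1 of the 8 arrays, that of *Utf1* without 1, 3, 4 or 6 d, that of *Ddx4* without 3, 4 or 6 d and that of *Mael* without 4 d. In the first set alone *Nanog*, *Utf1*, *Pdgfra*, *Pdgfrb*, *Krt7* and *Mael* did not pass, and *Utf1* did not with its probe sets averaged. Both the marker sums and this ratio moved with Dox time, and their part in the results that follow was not tested.

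E-boxes stood in the promoters of several initiation factor genes. Of the 40 genes, 32 had a promoter in the RefSeq table (assembly GRCm38.p6, from 250 bases before the transcription start to 50 after it), and 9 of these (28.1%) held CACGTG, a palindrome that reads the same on both strands and was the only motif searched. The share was 8.09% of all 27025 genes in the table, 10.2% of the genes measured here and 14.4% of those with a mean log2 value of at least 8 in LIF+serum, a level that 35 of the 40 reached. By windows, counting each alternative start, it was 11 of 44 against 7.15% of all windows. The sites upstream of the start are shown with up to 20 bases on each side, in the direction of the gene and with the E-box in capitals, since this is the sequence that MAX dimers bind. *Eif3a* held its site downstream of the start and is not shown.
*Eif5a2*, chr3:28781115-28781185, plus strand, 2 sites: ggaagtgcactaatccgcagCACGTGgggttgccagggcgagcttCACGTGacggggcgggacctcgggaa
*Eif4e*, chr3:138527020-138527065, plus strand, distal site: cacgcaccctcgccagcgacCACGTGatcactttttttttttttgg
*Eif4e*, chr3:138527184-138527229, plus strand, proximal site: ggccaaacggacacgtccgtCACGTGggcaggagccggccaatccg
*Eif4h*, chr5:134639480-134639525, minus strand: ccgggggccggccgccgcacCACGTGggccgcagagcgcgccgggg
*Eif3k*, chr7:28981907-28981952, minus strand: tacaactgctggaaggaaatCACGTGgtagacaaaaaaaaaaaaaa
*Eif3f*, chr7:108934327-108934372, plus strand: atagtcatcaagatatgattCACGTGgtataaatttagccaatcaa
*Eif1b*, chr9:120492562-120492605, plus strand: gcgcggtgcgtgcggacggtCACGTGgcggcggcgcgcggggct
*Eif4a1*, chr11:69672587-69672632, minus strand: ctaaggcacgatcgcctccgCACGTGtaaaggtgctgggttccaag
*Eif5a*, chr11:69921435-69921480, minus strand, upstream start: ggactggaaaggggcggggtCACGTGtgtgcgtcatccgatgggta
*Eif5a*, chr11:69920783-69920828, minus strand, another start: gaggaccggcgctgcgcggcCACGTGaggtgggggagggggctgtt

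The first comparison asked which of these genes changed with time after MAX was switched off in LIF+serum. Most initiation factor genes had high values and no slope past the threshold. *Eif4a2*, which encodes a paralogue of the eIF4A helicase, rose, and 4 genes fell: *Eif4ebp2* (an inhibitor of eIF4E), *Eif4b* (a cofactor of eIF4A), *Eif2b5* (the catalytic subunit of eIF2B) and *Eif2s3x* (the X-linked gene for the gamma subunit of eIF2). The other 35 did not pass the threshold of the limma slope test, which was adjusted over all 45037 probe sets. Median slope over the 40 genes was -0.015 log2 per day, against -0.009 over all genes, and 16 slopes were above 0 and 24 below. In bulk RNA, fewer cells of a type and less RNA per cell cannot be told apart.

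The counts were read against those of the whole array. The 1 gene that rose is 2.5% of the 40, where 5.75% of all genes rose and 5.89% of genes with a mean of at least 8 did. The 4 that fell are 10%, where 5.33% of all genes fell and 9.91% of genes with such a mean did, and all 4 are among the 35 at that level. Without the adjustment, 4 of the 40 were higher and 8 lower at p under 0.05 (limma), beside 2406 higher and 2698 lower of all 18193 genes. Over the 113 probe sets 2 rose and 11 fell, where 4.77% and 4.17% of all probe sets did. Among the 30 genes with several probe sets, the slopes had 1 sign on all of them for 18 and both signs for 12.

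**Figure D1:**
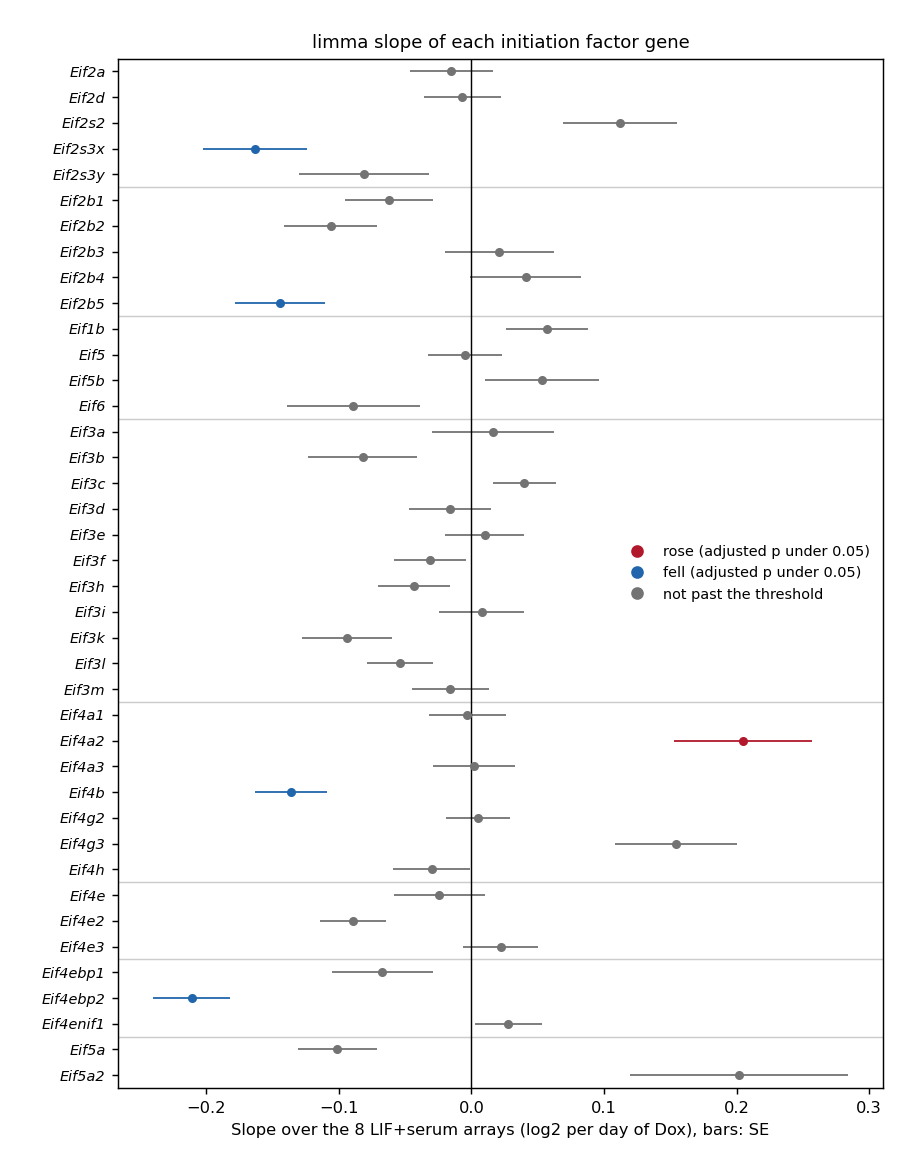
Slope of each of the 40 genes over the 8 LIF+serum arrays (log2 per day of Dox, limma, bars SE), grouped by role with grey lines between groups. *Eif4a2* alone lies above 0 past the threshold of 0.05, *Eif4ebp2*, *Eif4b*, *Eif2b5* and *Eif2s3x* lie below 0 past it, and most of the others sit within 0.1 of 0.

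*Eif4a2* had 10.10 on the first untreated array and 11.28, 11.66, 11.62 and 11.74 after 1 to 4 d. In the second set it had 11.14 untreated, then 12.37 at 6 d and 12.31 at 8 d. All 6 Dox arrays lay above both untreated arrays, although these 2 differed by 1.03 log2. Its folds within the sets were 3.11 at 4 d, 2.34 at 6 d and 2.25 at 8 d, and the slope was 0.21 ± 0.05 log2 per day (SE, limma, adjusted p = 0.0382). This call ended when the array at 1, 3, 4 or 6 d or the second untreated array was left out, and in the first set alone. *Eif4a2* was read by 1 probe set.

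*Eif4a1*, the main eIF4A gene of growing cells, carried an E-box and showed another course. It had 12.79 untreated and 12.74, 12.85, 12.60 and 12.47 after 1 to 4 d, then 13.26 untreated and 13.23 and 13.47 after 6 and 8 d. Its slope was -0.003 ± 0.029 (limma, adjusted p = 0.972), and its values split by array set more than by Dox. *Eif4a3*, which belongs to the exon junction complex, was read from a dim probe set (4.07 to 5.10 in LIF+serum) that gave no slope past the threshold.

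*Eif4ebp2* gave the smallest adjusted p of the 40. Its values were 9.93 untreated, then 9.64, 9.53, 9.37 and 9.37 in the first set, and 10.57 untreated, then 9.01 and 8.78 in the second. On this probe set every Dox array lay below both untreated arrays, and the folds at 4, 6 and 8 d were 0.682, 0.339 and 0.289. The slope was -0.21 ± 0.03 log2 per day (SE, limma, adjusted p = 0.00419). A second probe set fell as well (-0.19 ± 0.03, limma, adjusted p = 0.00526). Its values at 1 to 4 d (7.90 to 8.57) nonetheless lay above its second untreated array (7.25). The 3 dimmest probe sets had slopes of -0.05 to -0.06 without passing. *Eif4ebp1*, its paralogue, had 11.67 untreated and 11.65 to 12.05 over 1 to 4 d, then 11.92 untreated, 11.44 at 6 d and 10.96 at 8 d, with a slope of -0.07 ± 0.04 that did not pass (limma, adjusted p = 0.315). *Eif4enif1*, which encodes the shuttling protein 4E-T, had a slope of 0.03 ± 0.03 (limma, adjusted p = 0.565).

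*Eif4b* stayed at 11.60 and 11.61 over the first 2 d, against 11.64 untreated, and was at 11.14 and 11.09 after 3 and 4 d. In the second set it had 11.83 untreated, 10.93 at 6 d and 10.84 at 8 d. On this probe set the Dox arrays lay below both untreated ones, by only 0.03 at 2 d, and the fold was 0.684 at 4 d and 0.504 at 8 d. The slope was -0.14 ± 0.03 (SE, limma, adjusted p = 0.0157), and all 3 of its probe sets fell. On the dimmer ones the arrays at 1 and 2 d lay above the second untreated array. These values were 11.58 and 11.57 against 11.26 on 1 of them, and 10.60 and 10.77 against 10.06 on the dimmest. For *Eif4ebp2* and *Eif4b* the call was lost only without the second untreated array and in the first set alone, among 16 alternatives; without that array, no probe set of the whole table passed (0 of 45037 by limma, 6139 at an unadjusted p under 0.05).

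*Eif2b5* had 11.01 untreated and 10.33, 10.28, 10.02 and 9.99 over 1 to 4 d, so that most of its difference was present at 1 d. In the second set it had 10.70 untreated, 9.80 at 6 d and 9.83 at 8 d. Again no Dox array reached either untreated one, with folds of 0.494 at 4 d and 0.548 at 8 d and a slope of -0.14 ± 0.03 (SE, limma, adjusted p = 0.0293). The call ended without the array at 3, 4 or 6 d, without the second untreated one, in the first set alone, and when its dim second probe set (4.20 to 5.08) was averaged in.

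The other eIF2B subunits did not pass. *Eif2b2* (beta subunit) came closest, with 10.72 untreated and 10.17, 10.02, 9.97 and 9.82 in the first set, 9.49 untreated, 8.70 and 8.98 in the second, and a slope of -0.11 ± 0.04 (limma, adjusted p = 0.0921). *Eif2b1* (alpha) was at 0.63 of untreated at 4 d and 0.902 at 8 d. *Eif2b3* (gamma) and *Eif2b4* (delta) were below untreated at all times of the first set, with 0.743 and 0.698 at 4 d, and above it at 8 d, with 1.39 and 1.63. Over the 5 subunits the median fold at 4, 6 and 8 d was 0.63, 0.673 and 0.902.

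*Eif2s3x* had no single direction in the first set, with 10.43 untreated, 10.67 at 1 d, 10.97 at 2 d, 10.37 at 3 d and 9.91 at 4 d. The second set had 11.28 untreated, 10.23 at 6 d and 9.91 at 8 d. The Dox arrays overlapped the untreated ones, and the slope of -0.16 ± 0.04 (SE, limma, adjusted p = 0.0324) passed in 7 of 16 alternatives, the fewest of the 5. It lost its call without the array at 1, 3, 4, 6 or 8 d, without the second untreated one, without the array set as a covariate, in the first set alone and with log2(day + 1) in place of day. All 3 of its probe sets fell. The brightest is of a type that can share probes with related transcripts, and its Y-linked copy *Eif2s3y* was dim (3.38 to 5.24) and did not pass.

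The remaining carriers of the initiator tRNA did not pass either. *Eif2s2*, the beta subunit of eIF2, had 11.67 untreated, then 12.36, 12.80, 12.73 and 12.84, and in the second set 12.45, then 13.00 and 12.92. All Dox arrays but that at 1 d lay above both untreated arrays, the fold was 2.25 at 4 d and 1.38 at 8 d, and the slope was 0.11 ± 0.04 (limma, adjusted p = 0.146). *Eif2a* and *Eif2d*, which deliver the initiator tRNA by other routes, were at 1.12 and 0.837 of untreated at 4 d and 0.863 and 1.06 at 8 d.

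None of the 11 eIF3 subunits measured passed (limma, adjusted p between 0.121 and 0.914; 1 at an unadjusted p under 0.05). Their slopes lay between -0.09 and 0.04, with 4 above 0, and their values were high, with a median over the subunits of 11.68 to 12.34 on the 8 LIF+serum arrays. *Eif3k* had the lowest slope, with 12.34 untreated and 11.67 at 4 d, then 11.91 untreated, 11.09 at 6 d and 11.51 at 8 d. *Eif3b*, a core subunit that holds the scaffold together, was at 0.541 of untreated at 4 d and 0.879 at 8 d. *Eif3a*, the largest core subunit, was at 1.94 of untreated at 4 d and 0.765 at 8 d. *Eif3c*, *Eif3d*, *Eif3e*, *Eif3f*, *Eif3h*, *Eif3i*, *Eif3l* and *Eif3m* stayed between 0.731 and 1.30 of untreated at 4, 6 and 8 d.

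Of the other parts of eIF4F, the scaffold genes differed in level and course. *Eif4g2*, an eIF4G relative that lacks the eIF4E-binding part, lay between 12.43 and 12.86 on all 8 arrays. None of its 5 probe sets passed, and 3 had slopes above 0. A dimmer one (9.63 to 10.32) had a slope of 0.085 ± 0.027 (limma, adjusted p = 0.084). Its folds were 1.61 at 4 d and 1.4 at 8 d, and 0.546 in 2i+LIF. *Eif4g3* had 6.23 untreated and 6.46, 6.95, 7.24 and 7.35, then 7.20 untreated, 8.48 at 6 d and 7.85 at 8 d, with a slope of 0.15 ± 0.05 that missed the threshold (limma, adjusted p = 0.0676). Its 3 dimmer probe sets had slopes of -0.023, 0.002 and 0.004 log2 per day. *Eif4h*, an eIF4A cofactor with an E-box, was at 0.687 of untreated at 4 d and at 1.00 at 8 d.

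None of the 3 cap-binding genes passed (limma, 1 at an unadjusted p under 0.05). *Eif4e*, with a pair of E-boxes, had 11.17 untreated and 11.11, 11.37, 10.88 and 10.72, then 11.02 untreated, 10.82 and 11.12, a slope of -0.02 ± 0.03 (limma, adjusted p = 0.73). *Eif4e2*, which encodes the repressive cap-binding protein 4EHP, just missed the threshold (-0.09 ± 0.03, limma, adjusted p = 0.0539), and its 5 probe sets had slopes of both signs. Of these, 1 other bright probe set (9.57 to 10.60) narrowly passed and fell (-0.11 ± 0.03, limma, adjusted p of 0.05 after rounding). *Eif4e3* was dim, at 5.34 to 5.83.

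Among the genes of start codon selection and subunit joining, none of 4 passed (limma, adjusted p of 0.301 to 0.943; 0 at an unadjusted p under 0.05). *Eif6*, which keeps the ribosomal subunits apart, had 11.92 on the first untreated array and 11.04, 10.91, 10.63 and 10.66 over 1 to 4 d, a fold of 0.419 at 4 d, which was the lowest of the 40 there. Yet the second untreated array had 10.96, within the range of the Dox arrays, and 6 and 8 d had 10.50 and 10.82. *Eif5b*, the GTPase that joins the subunits, had 8.51 untreated, 9.20 to 9.41 with Dox in the first set, then 9.06 untreated, 9.58 at 6 d and 9.05 at 8 d. Its dimmest probe set (5.57 to 7.44) rose by 0.128 ± 0.024 log2 per day (limma, adjusted p = 0.0118). Another probe set of this gene did not pass (0.051 ± 0.040, adjusted p = 0.499). *Eif5*, the GTPase activator of eIF2, was at 1.06, 0.88 and 1.05 of untreated at 4, 6 and 8 d. *Eif1b*, a paralogue of the start codon factor eIF1, was at 0.909 of untreated at 4 d and 1.70 at 8 d.

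The eIF5A pair, whose proteins ease peptide bond formation and carry the amino acid hypusine, ran apart without either passing. *Eif5a* had 13.18 untreated and 13.03, 13.06, 12.70 and 12.63, then 13.21 untreated, 12.35 and 12.62, with a slope of -0.10 ± 0.03 (limma, adjusted p = 0.0651), and its dimmer probe set, which can share probes with related transcripts, fell (-0.22 ± 0.05, adjusted p = 0.0205). *Eif5a2* had 5.17 untreated and 7.01, 6.81, 7.45 and 7.75, then 6.81 untreated, 7.77 and 7.45. Its fold of 5.99 at 4 d was the highest of the 40, but the second untreated array lay 1.65 log2 above the first, and the slope was 0.20 ± 0.08 (limma, adjusted p = 0.164). The other *Eif5a2* probe set had folds of 1.96, 0.991 and 1.02 at 4, 6 and 8 d and a slope of 0.057 ± 0.050 (limma, adjusted p = 0.554). Both the enzymes that make hypusine fell: *Dhps* by 0.18 ± 0.04 and *Dohh* by 0.17 ± 0.04 log2 per day (limma, adjusted p = 0.0213 and 0.0179), with folds of 0.379 and 0.469 at 4 d and 0.501 and 0.484 at 8 d. Neither passed without the array at 4 d or without the second untreated one, and *Dohh* also failed in the first set alone and with its probe sets averaged.

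**Figure D2:**
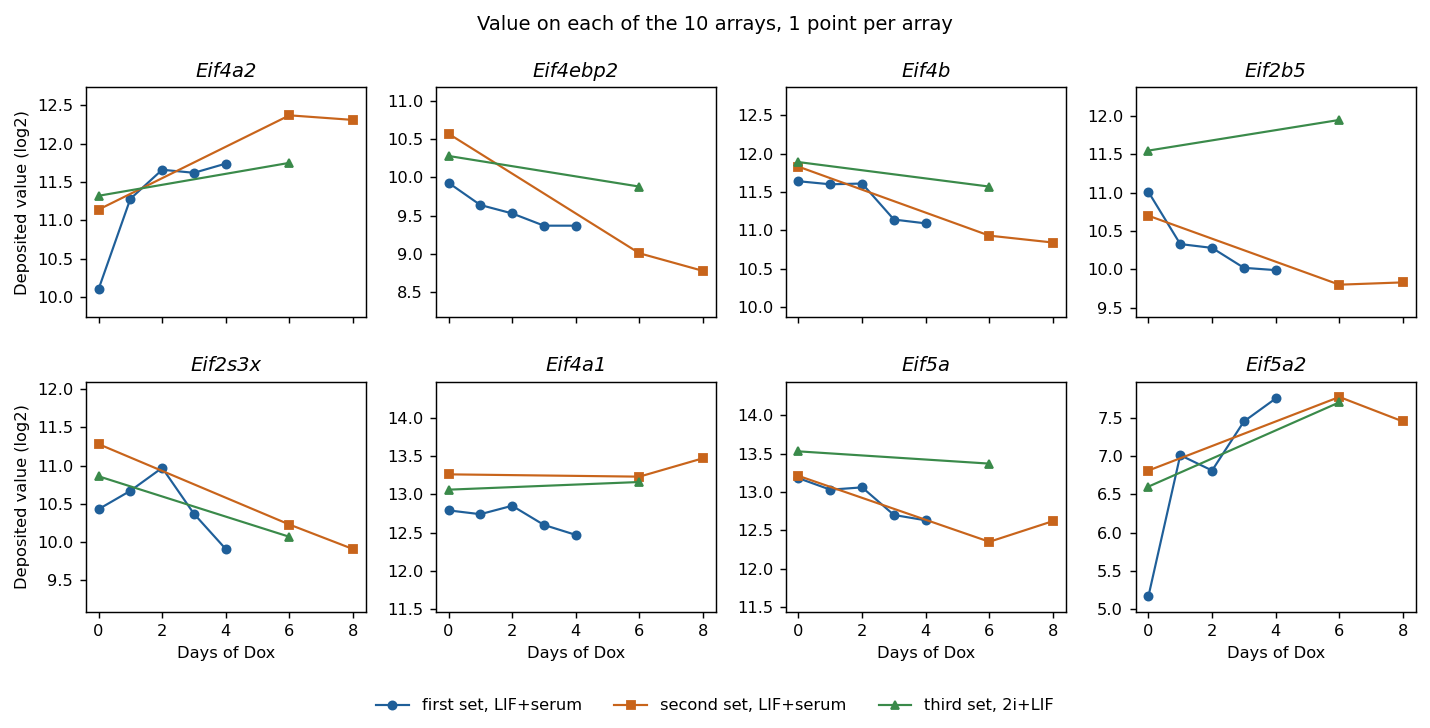
Deposited log2 value of 8 genes on each of the 10 arrays against days of Dox, 1 point per array and 1 line per array set; the y axes span 3 log2 units each, at different levels. *Eif4a2* stands higher and *Eif4ebp2*, *Eif4b* and *Eif2b5* lower on every LIF+serum Dox array than on its untreated array, while *Eif4a1* splits by set and *Eif5a2* has its lowest value, 5.17, on the first untreated array.

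At single arrays, folds were counted within each set, relative to its untreated array, with no test since each time was 1 array. At 1 d, 4 of the 40 genes were at least 1.5-fold higher and 3 at least 1.5-fold lower, beside 8.85% and 6.85% of all genes. These counts were 6 and 4 at 2 d, beside 10.1% and 10.1%, and 6 and 7 at 3 d, beside 13.1% and 12.6%. At 4 d, 6 of the 40 genes were at least 1.5-fold higher and 6 at least 1.5-fold lower (15% each), beside 14.6% and 14.6% of all genes. At 6 d, 3 were higher (7.5%) and 10 lower (25%), beside 13.3% and 15.3%, and at 8 d, 5 were higher and 8 lower, beside 14.1% and 14%. Against the untreated array of the other set, genes lay on both sides at 6 and 8 d. There *Eif2b2* was at 0.247 and 0.3 and *Eif4a2* at 4.8 and 4.61. Within the sets, *Eif4a2*, *Eif4g3* and *Eif5a2* were at least 1.5-fold higher at 4, 6 and 8 d, and *Eif2b5* at least 1.5-fold lower. Median fold of the 40 went from 0.948 at 1 d through 0.945, 0.882, 0.869 and 0.884 to 0.969 at 8 d, and that of all genes lay between 0.933 and 0.974. The side of 1 on which the early medians fell rested on the reference, since against the untreated array of the other set they were 1.01 at 1 d, 1.04 at 2 d and 1.09 at 4 d, with 0.961, 0.799 and 0.851 at 3, 6 and 8 d. Of the 35 genes with a mean of at least 8, the median was 0.829 at 4 d and 0.909 at 8 d, where all genes at that level had 0.957 and 0.946. The untreated arrays of the 2 sets themselves differed by a median of 0.5 log2 over the 40 genes, against 0.35 over all genes. The fold was smaller in size than this gene's own difference between untreated arrays for 21 of the 40 at 4 d, 20 at 6 d and 23 at 8 d.

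**Figure D3:**
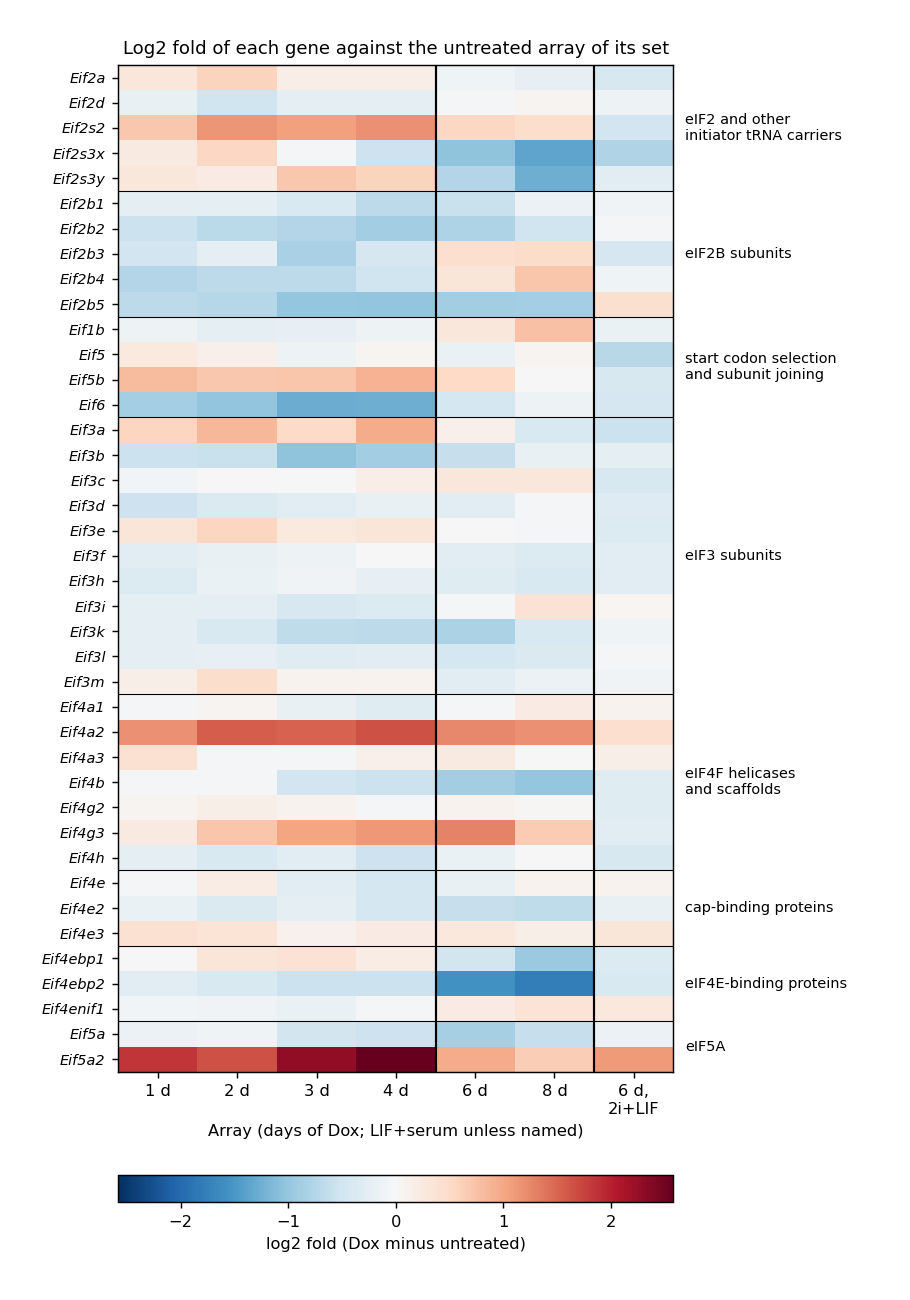
Log2 fold of each of the 40 genes (rows, by role) on each of the 7 Dox arrays (columns) against the untreated array of its set; black lines separate the 3 sets, red is higher and blue lower than untreated. *Eif5a2* and *Eif4a2* are red throughout, *Eif2b5* is blue in LIF+serum and red in 2i+LIF, and the 2i+LIF column is mostly pale blue.

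Of the 5 genes that rose or fell, none held an E-box in its promoter window. The 9 genes with one had a median slope of -0.024 log2 per day and the 23 without one -0.016. The 8 genes with no promoter in the table are not placed on either side. No match says only that these letters were not in this window.

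The second comparison asked whether the response to Dox differed in 2i+LIF. After 6 d there, the genes were mostly a little lower: 31 of 40 lay below the untreated 2i+LIF array, 77.5% against 47.1% of all genes, and the median fold was 0.833 against 1.01. Among genes with a mean of at least 8 in LIF+serum, 29 of 35 lay below (82.9%), against 53.4%. Few moved far, since 1 gene was at least 1.5-fold higher and 2 at least 1.5-fold lower, beside 6.66% and 7.47% of all genes. These are differences between 1 pair of arrays and have no replicate check. Trophoblast markers differed on the same pair, with a summed linear value of 1800 untreated and 597 with Dox (*Krt8* at 0.238 and *Krt18* at 0.443 of untreated), while the fibroblast sum was 340 and 437 and the primitive endoderm sum 260 and 209. The part of these markers in the lower values was not tested.

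*Eif5a2* was the one that was higher, with 6.60 untreated and 7.70 with Dox, a fold of 2.14. *Eif2s3x* was the lowest, with 10.86 and 10.07, a fold of 0.582, and *Eif5* had 10.73 and 10.01, a fold of 0.611. *Eif4a2* was at 1.35 of untreated, *Eif4ebp2* at 0.76 and *Eif4b* at 0.804, each on the same side as in LIF+serum. *Eif2b5* was not, with 11.55 untreated and 11.95 with Dox. All of *Eif3a* to *Eif3m* except *Eif3i* (1.04) lay below untreated, between 0.677 for *Eif3a* and 0.969 for *Eif3l*.

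The 6 d array in LIF+serum does not share its control with that in 2i+LIF. Between them some genes lay on the same side of untreated and others on opposite sides. At 6 d in LIF+serum 62.5% of the 40 genes lay below untreated, beside 55.9% of all genes. In 2i+LIF 77.5% did, beside 47.1%. The difference between the media was tested as an interaction in limma over all 10 arrays, where the 2 arrays in 2i+LIF are assumed to vary like the others. It passed for none of the 40 genes (0% of all 45037 probe sets passed, with 5 of the 40 and 4641 of all at an unadjusted p under 0.05), and the smallest adjusted p of the 40 was 0.276, for *Eif2b5* (0.21 ± 0.06 log2 per day, SE). A p that missed the threshold here does not show that the genes responded alike in both media.

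**Figure D4:**
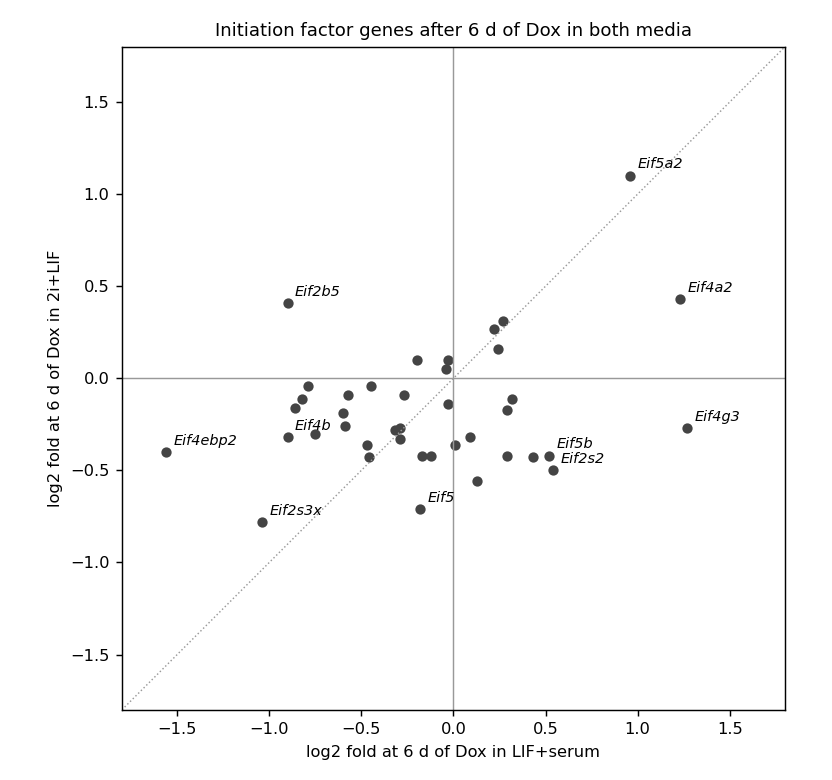
Log2 fold after 6 d of Dox in 2i+LIF (y) against that in LIF+serum (x), 1 point per gene, each against the untreated array of its own set; the dotted line marks equal folds. Most points lie below 0 on the y axis, and *Eif2b5*, *Eif4g3* and *Eif2s2* lie on opposite sides of 0 in the 2 media.

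Genes around the initiation factors were taken by lists. In the control of eIF2, none of the 4 kinases of its alpha subunit passed: slopes were -0.04 ± 0.03 for *Eif2ak1*, 0.07 ± 0.03 for *Eif2ak2*, 0.07 ± 0.03 for *Eif2ak3* and 0.01 ± 0.03 for *Eif2ak4* (limma, adjusted p of 0.384, 0.21, 0.137 and 0.812). Of the 15 genes of kinases, phosphatases and stress targets 2 rose and none fell, namely *Ppp1r15a*, which guides the phosphatase of eIF2 alpha (0.11 ± 0.03, adjusted p = 0.0469), and the stress factor *Atf3* (0.23 ± 0.04, adjusted p = 0.00932). *Ppp1r15a* had 8.67 untreated and 9.04 at 4 d, then 8.90 untreated and 9.66 and 9.80 at 6 and 8 d, and lost its call without the array at 1, 3, 4, 6 or 8 d, in the first set alone, with log2(day + 1) in place of day and with a trended, robust variance. Without the second untreated array neither passed.

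Among 17 genes of mTORC1 and eIF4E control, *Tsc1*, which restrains mTORC1, rose (0.24 ± 0.04, limma, adjusted p = 0.00842), and *Akt1s1* (PRAS40) and *Larp1*, an RNA-binding regulator of ribosomal protein mRNAs, fell (-0.12 ± 0.03 and -0.14 ± 0.03, adjusted p = 0.0353 and 0.0195). *Tsc1* had 6.01 untreated and 6.97 to 7.45 with Dox in the first set, and 7.24 untreated, 8.74 and 8.81 in the second. Median slope of this list was 0.03. None of the 3 passed without the second untreated array or in the first set alone. *Tsc1* also lost its call when its probe sets were averaged (slope 0.075, adjusted p = 0.0732). *Larp1* did not pass without 4 d or without the array set as a covariate (-0.093, adjusted p = 0.153). *Akt1s1* did not pass without 2, 3, 4 or 6 d, without that covariate (-0.072, adjusted p = 0.258) or with probe sets averaged (-0.086, adjusted p = 0.0505).

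The X-linked eIF1A gene *Eif1ax* fell by 0.22 ± 0.04 log2 per day (limma, adjusted p = 0.0152), from 10.84 untreated to 9.78 at 4 d and from 11.22 to 9.92 and 9.75 at 6 and 8 d. Its relatives *Eif1a* (-0.02 ± 0.04) and *Eif1ad* (0.03 ± 0.04) did not pass (adjusted p of 0.826 and 0.726). Of 6 poly(A)-binding proteins and partners *Pabpc4* fell (-0.20 ± 0.05, adjusted p = 0.0337), with 10.92 untreated, 9.56 at 4 d, and 11.68 untreated and 10.51 at 8 d in the second set. Both calls ended without the second untreated array, in the first set alone and with probe sets averaged, where the slope was -0.081 for *Eif1ax* (adjusted p = 0.282) and -0.194 for *Pabpc4* (adjusted p = 0.0535). That of *Pabpc4* ended too without the first untreated array, without the array at 1, 3, 4 or 6 d, and without the array set as a covariate (-0.109, adjusted p = 0.334).

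No elongation factor of 7 passed, *Eef1d* being nearest (-0.13 ± 0.04, limma, adjusted p = 0.0574), with *Eef1e1* next by slope (-0.09 ± 0.04, adjusted p = 0.136). None of 9 termination and recycling factors passed (*Mcts1* -0.11 ± 0.04 and *Mcts2* -0.08 ± 0.05, adjusted p of 0.113 and 0.389), none of 9 helicases and cap-binding partners (*Dhx36* 0.08 ± 0.05 and *Angel1* 0.07 ± 0.04, adjusted p of 0.432 and 0.281) and neither mitochondrial initiation factor (*Mtif3* -0.03 ± 0.03 and *Mtif2* 0.001 ± 0.038, adjusted p of 0.691 and 0.99). At an unadjusted p under 0.05 there were 2, 1, 1 and 0 of them, in that order of lists.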

How the data were processed

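RNA from *Max*-null ESCs was measured on Affymetrix whole-genome mouse arrays, 8 from LIF+serum and 2 from 2i+LIF. The authors subtracted background and normalized in R by RMA (robust multi-array analysis) and deposited log2 values. RMA and affy are credited to the submitters' processing notes. No version, and no statement of which arrays were normalized together, was given in the sources used here. RMA shrinks differences among dim probe sets, so folds near the background are likely understated, and the number of arrays limits the precision. Array medians lay between 5.263 and 5.334 in LIF+serum and at 5.138 and 5.162 in 2i+LIF.

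The table held 45101 probe sets, of which 64 controls were left out. The platform annotation gave 1 symbol for 34945, several for 932 and none for 9160, and matching Entrez IDs to RefSeq changed no symbol. Probe sets with several symbols were not used, which left out 5 with an *Eif* symbol. *Eif4g1* and *Eif2s1* were not among the 40 genes. Genes and lists were named by rule: every member, each gene of the other lists that passed, or the 2 with the largest slope where none passed, and the eIF2 alpha kinases and eIF1A genes always. The members and lists were chosen with earlier results of these data known.

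With the deposited log2 values of the 8 LIF+serum arrays, a slope on days of Dox was fitted in limma 3.58.1 (R 4.3.3), with array set as a covariate (5 residual and 4.81 prior degrees of freedom). The difference between media was the interaction of day and medium over all 10 arrays with 3 sets. Benjamini-Hochberg adjustment ran over all 45037 probe sets, with a threshold of 0.05. Both fits were tested on simulated data. Folds are log2 differences from the set's own untreated array, written as ratios, and were counted at 1.5-fold. Promoters were searched for CACGTG in Python 3.11.15 (pandas 2.3.3, numpy 2.4.6, matplotlib 3.10.9). Alternatives changed the covariate, the shape of the trend, filters, normalization, variance model, probe sets, reference array and the arrays used.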

Additional observations from a re-analysis of the deposited data

Results flagged for a closer look

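3 genes moved one way on all 6 LIF+serum Dox arrays and the other way on the single Dox array in 2i+LIF. *Eif2b5* was 0.41 log2 above untreated in 2i+LIF, against -1.02 to -0.68 in LIF+serum. *Eif2s2* was at -0.50 in 2i+LIF, against 0.46 to 1.17. *Eif4g3* was at -0.27, against 0.24 to 1.27. The limma interaction passed for none of them, with slopes in 2i+LIF minus LIF+serum of 0.21 ± 0.06, -0.20 ± 0.08 and -0.20 ± 0.09 log2 per day (SE) and adjusted p of 0.276, 0.441 and 0.464.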

How the results depend on the processing

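The count of genes that rose, 1, was 2 in the first array set alone, 4 with log2(day + 1) in place of day, 2 without the array set as a covariate, and 0 to 2 when each array was left out in turn. The count that fell, 4, was 0 in the first set alone, 7 with log2(day + 1), and 0 to 6 over the left-out arrays. It was 6 with either filter on low values and with the trended, robust variance model. The counts of the whole array moved too. Of all 45037 probe sets 2150 rose and 1879 fell in the main fit. These were 1602 and 991 in the first set alone, 2736 and 2499 with log2(day + 1), and 2877 and 2110 without the covariate. They were 2126 and 1885 with the trended, robust variance. The filters gave 2094 and 2066 of 21646 probe sets that reach 6, and 654 and 1183 of 8153 with a mean of at least 8. Without the second untreated array none of the 40 passed, nor did any other probe set (limma, 6139 of 45037 at an unadjusted p under 0.05). *Eif4ebp2* and *Eif4b* passed in 14 of 16 alternatives each, *Eif2b5* and *Eif4a2* in 10 and *Eif2s3x* in 7, with adjusted p of at most 0.308, 0.328, 0.285, 0.279 and 0.476. No slope of these or of the list genes that passed changed sign.

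At 2-fold in place of 1.5-fold, the genes higher numbered 2, 3, 4, 4, 2 and 1 at 1, 2, 3, 4, 6 and 8 d and 1 in 2i+LIF. Those lower numbered 0, 1, 2, 2, 2 and 3 at these times and 0 in 2i+LIF. Of all 18193 genes, 545, 778, 1115, 1405, 1081 and 1161 were 2-fold higher at these times, and 319 in 2i+LIF. Lower by 2-fold were 103, 247, 556, 714, 974 and 1027 of them, and 441 in 2i+LIF. Back at 1.5-fold, counts also moved with another reference (the other set's untreated array, or the mean of both) and with probe sets averaged. They are not listed here, since no share of all genes is given beside them. Against the untreated array of the other set, genes lay on both sides at 6 and 8 d. Median folds moved by less than the spread of the untreated arrays, yet 3 of them crossed 1 against the untreated array of the other set: 0.948 became 1.01 at 1 d, 0.945 became 1.04 at 2 d and 0.869 became 1.09 at 4 d. No gene passed the interaction under any of 12 alternatives. Arrays were linked by array set and not by replicate number, so the fit without the array set as a covariate is the one without that block.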
